A study of Homo sapiens with 2 samples.

Results

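The TCF3::HLF-HiChIP interactions described here are those of MYC, PVT1 and CCDC26, 3 genes that follow each other on the long arm of chromosome 8 up to the blood enhancer cluster (BENC). An interaction was included if at least 1 of its 5-kb bins overlapped the body of MYC, PVT1 or CCDC26 (GENCODE release 44, hg38) or the 10 kb on either side, whether or not the other bin lay outside the stretch from MYC to CCDC26. Of the 49245 interactions listed, 172 met this rule, which is 0.349% of the list and 8.13% of the 2115 interactions of chromosome 8. The cells were HAL-01, a human B cell acute lymphoblastic leukemia line that carries the translocation t(17;19) and expresses the fusion transcription factor TCF3::HLF. They carried Cas9 with GFP and lacked wild-type TCF3 after a knockout, which leaves TCF3::HLF as the target of the E2A/TCF3 antibody, and this single TCF3-KO condition was assayed in 2 biological replicates. No untreated, parental or fusion-negative sample was analysed here, and the authors merged the replicates before calling interactions, so that no value below has a replicate error and no difference between conditions could be tested.

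MYC encodes a basic helix-loop-helix leucine zipper transcription factor that drives growth and proliferation and is deregulated in many leukemias. PVT1 is a long noncoding RNA gene immediately downstream of MYC that hosts several microRNAs and contains enhancers that contact the MYC promoter in various tissues. CCDC26 is a long noncoding RNA gene further downstream, and its far end overlaps the BENC, a group of enhancers known to act on MYC over a long distance in hematopoietic cells. HiChIP joins chromatin ends that lie near each other in the nucleus and enriches for those bound by the precipitated protein, and the contact count of an interaction is the number of read pairs that join its 2 bins.

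MYC spans 127735434 to 127742951 on the plus strand of chromosome 8 (ENSG00000136997.22). PVT1 spans 127794526 to 128187101 on the plus strand (ENSG00000249859.14), and CCDC26 spans 128634199 to 129683770 on the minus strand (ENSG00000229140.12). CCDC26 is thus 1050 kb long in GENCODE, PVT1 393 kb and MYC 7.52 kb, and a gap of 447 kb separates PVT1 from CCDC26. The body of CCDC26 is much shorter in RefSeq, where it runs from 129351694 to 129680239 and covers the end that overlaps the BENC, so the 75 interactions within 10 kb of the RefSeq body stand against 145 for the GENCODE body. All statements on CCDC26 below use the GENCODE body.

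CCDC26 took part in 145 interactions, PVT1 in 33 and MYC in 18, and 24 interactions joined 2 of the 3 genes. Interactions within a single gene made up the largest class, with 88 inside CCDC26 and 6 inside PVT1. Between genes, 7 interactions joined MYC with PVT1, 6 joined MYC with CCDC26 and 11 joined PVT1 with CCDC26. The gap between PVT1 and CCDC26 was joined with CCDC26 by 17 interactions, with PVT1 by 1 and with MYC by 1. The remaining 35 interactions left the stretch, 20 towards the region upstream of MYC and 15 towards the region downstream of CCDC26.

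**Figure D1:**
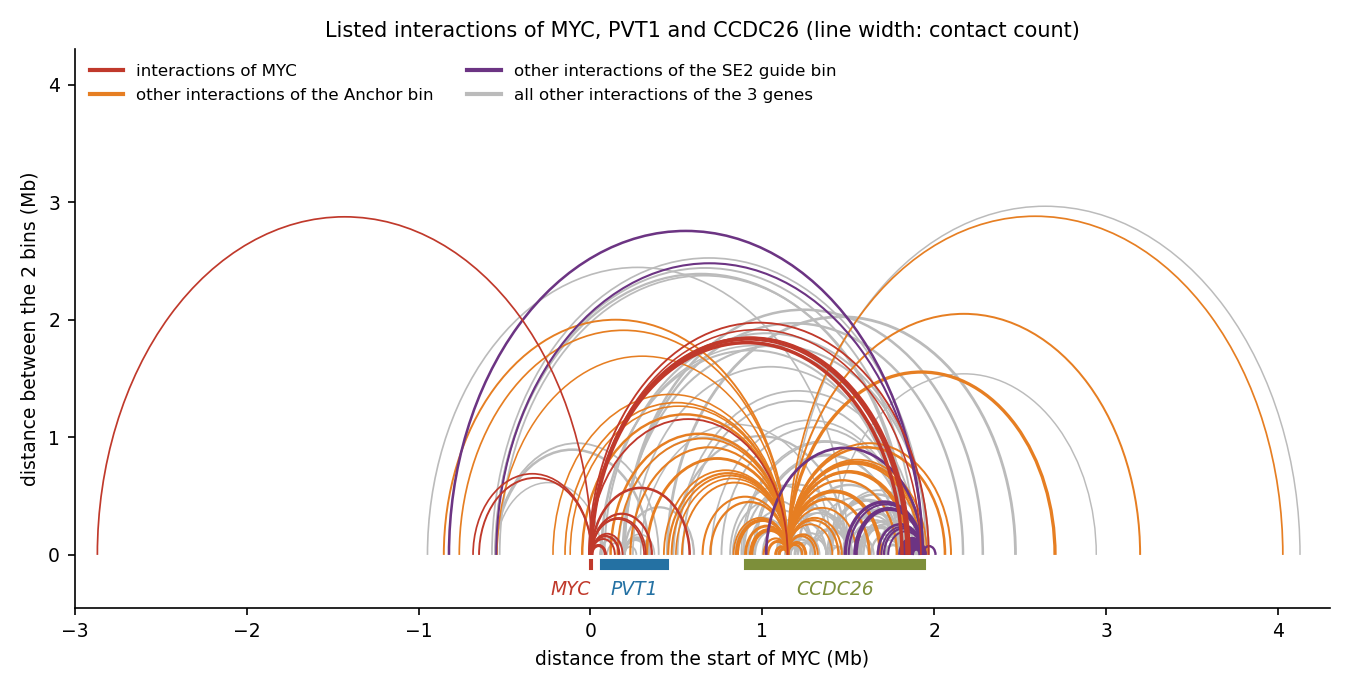
Each arc is 1 of the 172 listed interactions, drawn from bin to bin against the distance from the start of MYC (x axis, Mb), with the distance between its bins as its height (y axis, Mb) and the contact count as its line width. Arcs of MYC (red) run to PVT1, to the far end of CCDC26 and to 3 upstream bins, those of the Anchor bin (orange) spread to both sides, and those of the SE2 guide bin (purple) stay mostly in the far end of CCDC26.

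The 3 genes differed widely in size, so the number of interactions was also taken per Mb of gene body with its 10-kb flanks. Among 38726 protein-coding and lncRNA genes, CCDC26 ranked 1 by number, PVT1 ranked 305 and MYC ranked 997. Per Mb the order was reversed between MYC and CCDC26, with 654 interactions for MYC (rank 160), 136 for CCDC26 (rank 3462) and 79.99 for PVT1 (rank 6830). At least as many interactions as the 18 of MYC were found for 806 of 19970 protein-coding genes (4.04%).

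The median contact count of the 172 interactions was the same as that of the list as a whole. It was 24, with values from 12 to 147, and in all listed interactions it was 24 as well, with values from 7 to 615. A contact count of 24 has an exact Poisson 95% interval from 15.4 to 35.7, which covers counting error only, and duplicate read pairs were not removed before counting. The contact counts of the 172 added up to 4752 of 1268490 in the list, and both sums cover significant interactions only. Merged groups of more than 1 bin pair made up 18 of the 172 (10.5%), beside 7.69% of the list. A q-value under 1e-05 was reached by 109 of the 172 (63.4%), beside 66.5% of all listed interactions.

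The interactions of the locus were longer than those of the list. Their median distance was 402.5 kb, compared with 255 kb in the list, and 42 of them (24.4%) spanned more than 1 Mb, beside 13.7% of the list. Since contact counts fall with distance, each was set against the median contact count of all listed interactions at exactly the same distance, of which there were between 4 and 1393. The median of this ratio over the 172 interactions was 1.02. Only 7 (4.07%) reached a ratio of 2 or more, beside 3.20% of the list, and 13 (7.56%) lay above the 95th percentile of their distance class, beside 4.65% of the list.

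**Figure D2:**
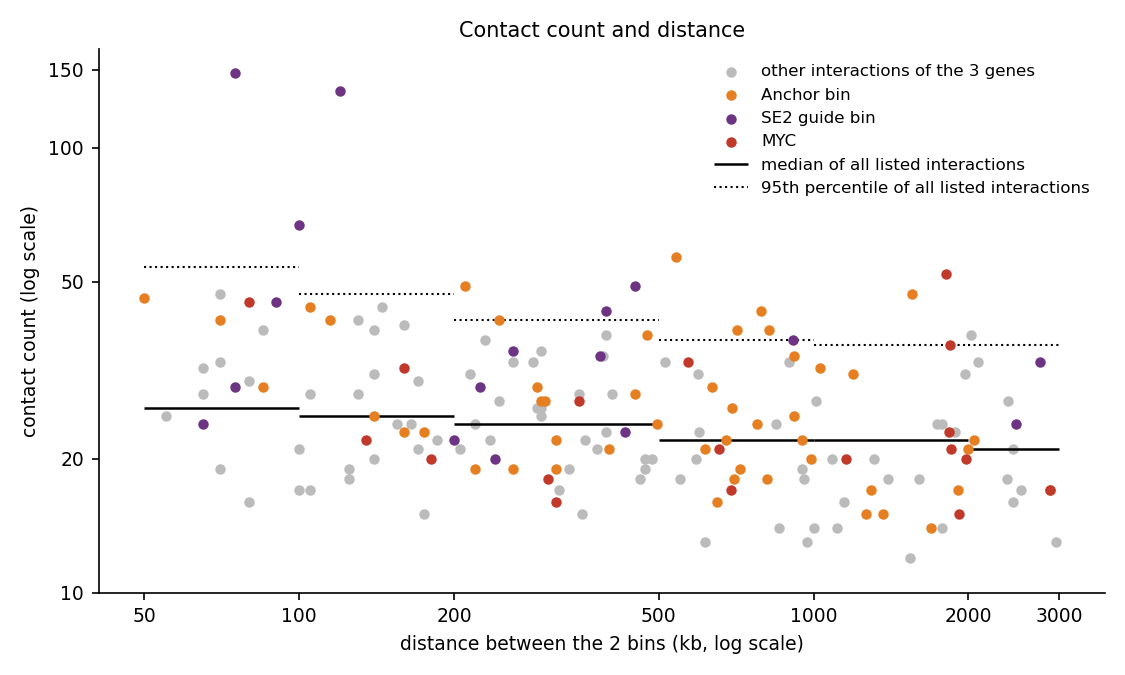
Contact count (y axis, log scale) against the distance between the bins (x axis, kb, log scale) for the 172 interactions, with the median (solid line) and the 95th percentile (dotted line) of all listed interactions in 6 distance classes. Most points lie around the solid line, and the highest ones are the contact counts of 147 and 134 of the SE2 guide bin and, beyond 1 Mb, the contact count of 52 of MYC.

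Most listed interactions of MYC involved a bin in its gene body. The bin from 127740001 to 127745000, which holds the 3′ part of MYC and 1 HLF motif in an exon (127741987 to 127741994, plus strand), took part in 15 of the 18. The bin that holds the transcription start, from 127735001 to 127740000, took part in 1, and the upstream bin from 127725001 to 127730000 in 2. The authors called interactions with peaks of the HiChIP signal as reference. How far the use of this or any other bin depends on peak positions was not tested. The paper reports TCF3::HLF signal at the MYC promoter. The lncRNA gene CASC11 overlaps the start of MYC on the upstream side, so the interaction of the transcription start bin cannot be assigned to 1 of the 2 genes. The gene body bin overlaps MYC and not CASC11, and the bin from 127725001 overlaps CASC11 and not the body of MYC. An HLF motif was counted where the bases read TTACGTAA or TTATGTAA, on 1 strand or the other, and a match is a description of the bin and not evidence of binding.

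With the far end of CCDC26, MYC had 5 interactions whose partner bins all lay between 129545001 and 129660000. The largest contact count of MYC, 52 (exact Poisson 95% interval, 38.8 to 68.2), joined the gene body bin with the bin from 129545001 at a distance of 1.805 Mb. This was 2.17 times the median at that distance (1.62 to 2.84), a median that rests on 15 interactions, and ranked 4 among the 4785 listed interactions between 1000 and 2000 kb. The single interaction of the transcription start bin reached the bin from 129580001, which holds the target of the SE1 guides, with a contact count of 36 (25.2 to 49.8), a ratio of 1.89 (1.33 to 2.62) and a sumCC of 78. SumCC is the sum of the contact counts over a merged group of neighboring significant bin pairs, and this group extends on the MYC side from 127730001 to 127745000, so that it includes the gene body bin. The other partner bins in this region started at 129570001, 129590001 and 129655001 and had contact counts of 23, 21 and 15.

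The 7 interactions of MYC with PVT1 lay at distances from 80 to 350 kb. The largest, 45 (32.8 to 60.2), reached the bin from 127820001 near the 5′ end of PVT1, 80 kb away, at 1.67 times the median for that distance. The bins from 127900001 and 128090001 followed with contact counts of 32 and 27. The remaining 4, from 127875001, 127920001, 128045001 and 128055001, had contact counts of 22, 20, 18 and 16, and all 4 lay below the median at their distance. The median ratio over the 7 was 0.88, compared with 1.08 over the 6 interactions of MYC with CCDC26, and the difference was not tested.

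The other 6 interactions of MYC were dispersed. A contact count of 33 joined the gene body bin with the bin from 128310001 in the gap between PVT1 and CCDC26, at 1.57 times the median for the distance. Upstream, it was joined with the bins from 127085001 and 127050001 in PCAT1, with contact counts of 21 and 17, and with the bin from 124865001 in LINC00964, 2.875 Mb away, with a contact count of 17. The bin from 127725001 was joined with the Anchor bin described below and with the bin from 129700001 just downstream of CCDC26, each with a contact count of 20.

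Added up, the contact counts of MYC came to 455. PVT1 held 39.6% of them (Wilson 95% interval, 35.2 to 44.1) and CCDC26 36.7% (32.4 to 41.2), over 7 and 6 listed interactions. These intervals cover counting error only, treat read pairs as independent although duplicates were kept, and were not used to compare the genes. The region upstream of MYC held 12.1%, the gap 7.25% and the region downstream of CCDC26 4.40%.

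**Figure D3:**
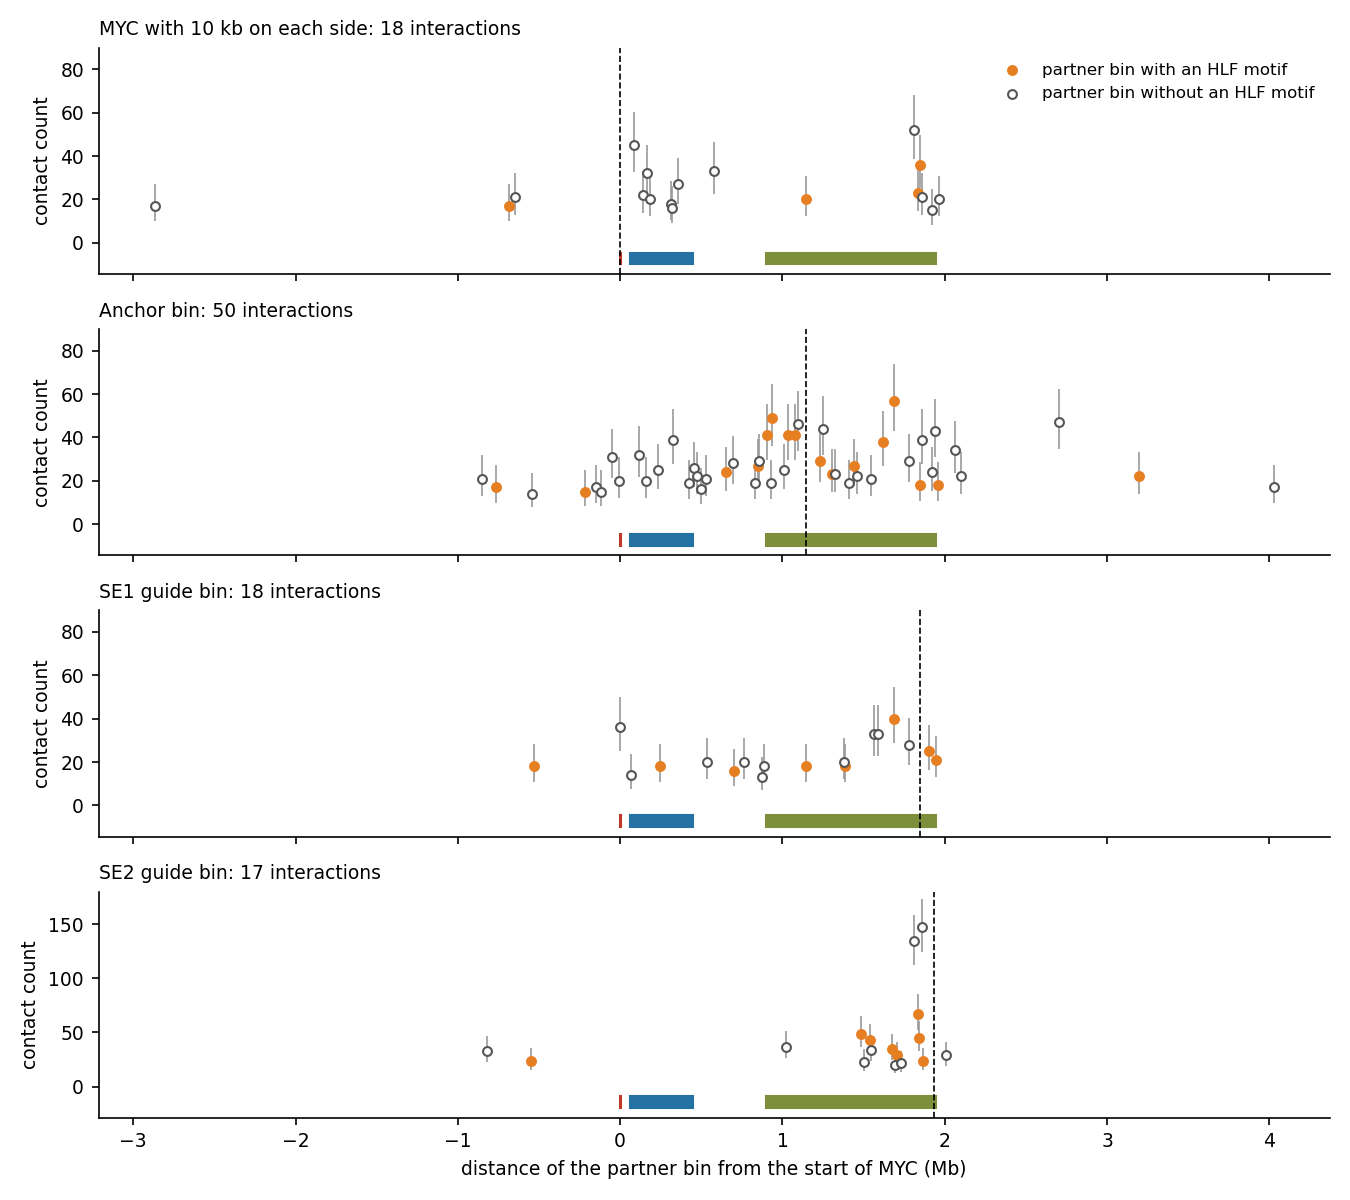
Contact count (y axis) of each partner bin of MYC, the Anchor bin, the SE1 guide bin and the SE2 guide bin against its distance from the start of MYC (x axis, Mb), with exact Poisson 95% intervals, and with MYC, PVT1 and CCDC26 as red, blue and green bars under each panel. A dashed line marks each viewpoint, filled points are partner bins with an HLF motif, and only the SE2 guide bin has contact counts above 100, so that its y axis is longer.

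In PVT1, 1 bin of the gene body accounted for many of the interactions. The bin from 127930001 to 127935000 was used by 9 of the 33 interactions, and all 6 interactions inside PVT1 had it as 1 of their bins. Their contact counts ran from 15 to 44, with the largest ones at the bins from 128075001 (44; 32.0 to 59.1) and 128060001 (41; 29.4 to 55.6). The same bin was joined with 2 bins in CYRIB, a regulator of the actin cytoskeleton downstream of CCDC26, over 2.085 and 1.97 Mb, with contact counts of 33 and 31.

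The 5 interactions that joined PVT1 with the region downstream of CCDC26 had a median ratio of 1.32, over same-distance medians that rest on 8 to 25 interactions. All 5 had a q-value under 1e-05, beside 66.5% of all listed interactions. The largest had a contact count of 38 (26.9 to 52.2) and joined the bin from 128180001 at the 3′ end of PVT1 with the bin from 130205001 in ASAP1, a GTPase-activating protein of the ARF family, over 2.025 Mb. That ASAP1 bin was itself used by 17 interactions, but this was the only one of them with MYC, PVT1 or CCDC26. The 11 interactions of PVT1 with CCDC26 had a median ratio of 0.91, and the difference was not tested. Of these 11, 6 ended at the Anchor bin, with contact counts from 19 to 39. At the 5′ end of PVT1, the bins from 127790001, 127795001 and 127800001 took part in 1, 2 and 1 listed interactions. These joined them with the bin from 127930001 (contact count, 31), with the upstream bin from 127180001 (13), and with the bins from 129535001 (24) and 129580001 (14) in CCDC26.

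Few bins of the stretch were used often. The 172 interactions had 165 anchor bins, 127 of which were used by a single interaction in the whole list, and 137 lay in the stretch from MYC to CCDC26. Among these 137, 5 bins were used by 10 or more interactions, beside 2.10% of the 53535 anchor bins of the list. Those 5 were the MYC gene body bin with 15, a bin in CCDC26 from 128880001 to 128885000 with 50, and 3 bins at the far end of CCDC26, from 129535001, 129580001 and 129665001, with 14, 18 and 17. A bin of this kind, in the stretch or outside, was part of 114 of the 172 interactions (66.3%), beside 32.0% of all listed interactions.

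The bin from 128880001 is called the Anchor bin here, because it was used most often between MYC and the BENC. That it is the site the study names Anchor was assumed from this use alone. The bin holds no CTCF core motif, a strict pattern found in 1.54% of the bins of chromosome 8. The paper places its Anchor only close to a CTCF binding site. The bin has no listed pair with the MYC gene body bin, but is joined with the bin from 127725001, within 10 kb of MYC (contact count, 20). Its 50 interactions ranked 3 among the 53535 anchor bins of the list, and they made up 29.1% of the 172. It lies in an intron of CCDC26 in GENCODE and outside CCDC26 in RefSeq, holds 3 HLF motifs (starting at 128881133, 128882750 and 128883401), and has no listed interaction in either of the adjacent bins. On chromosome 8, 320 of 28942 bins hold 3 or more HLF motifs, and 2 of them lie in the stretch. Its partner bins lay to both sides, 29 upstream and 21 downstream, with 23 in CCDC26, 8 in the gap, 6 in PVT1, 1 near MYC, 7 upstream of MYC and 5 downstream of CCDC26.

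The contact counts of the Anchor bin ran from 14 to 57, with a median of 24. Within CCDC26 their median was 29, and the largest, 57 (43.2 to 73.9), joined it with the bin from 129420001 over 540 kb, at 2.48 times the median for that distance (1.88 to 3.21). The bin from 128670001 followed with a contact count of 49. Outside the stretch, a contact count of 47 (34.5 to 62.5) joined it with the bin from 130435001 in ASAP1 over 1.555 Mb, which was 2.19 times the median (1.61 to 2.91) and ranked 15 among 4785 in its distance class. Its 7 interactions with the region upstream of MYC had a median contact count of 17. The Anchor bin was used by 12 of the 35 interactions that left the stretch.

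The bins of the enhancers SE1 and SE2 were identified by the guide RNAs that the study directed at their HLF motifs. The 2 guides for SE1 matched chromosome 8 at 129582442 to 129582461 and 129582446 to 129582465, on the minus strand, and the nearer of them lay 7 bases from an HLF motif. The guide for SE2 matched 129666488 to 129666507, on the plus strand and across an HLF motif (129666499 to 129666506). Each guide had a single match in hg38, with an NGG PAM. Both motifs lie in introns of CCDC26.

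The SE2 guide bin had the largest contact counts of the locus. Its 17 interactions had contact counts from 20 to 147, with a median of 34, compared with medians of 24 for the Anchor bin, 20 for the SE1 guide bin, 21 for the MYC gene body bin and 26 for the bin from 129535001. These medians are not adjusted for distance. The median distance was 240 kb for the SE2 guide bin and, in the same order, 662.5, 830, 570 and 237.5 kb for the others. The largest, 147 (124 to 173), joined it with the bin from 129590001 over 75 kb, at 5.65 times the median for that distance (4.78 to 6.65), and ranked 23 in the list. The next, 134 (112 to 159), joined it with the bin from 129545001 over 120 kb, at 5.36 times the median (4.49 to 6.35), and ranked 39. A contact count of 67 (51.9 to 85.1) with the bin from 129565001 had a ratio of 2.68. Of these partner bins, those from 129545001 and 129590001 were also joined with the MYC gene body bin, with contact counts of 52 and 21. The 2 lie on either side of the SE1 guide bin, and neither holds an HLF motif.

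Further away, the SE2 guide bin was joined with the bins from 129215001 and 129270001 in CCDC26 with contact counts of 49 and 43, with the bin from 128755001 (37), and with 2 bins more than 2 Mb away in PCAT1, from 126910001 and 127185001, with contact counts of 33 and 24. It had 16 partner bins upstream and 1 downstream. The SE1 guide bin was likewise used mainly from upstream, with 16 partner bins on that side and 2 on the other. With the MYC gene body bin, 3 of the 5 often used bins had at least 80% of their partners on 1 side, beside 20.4% of the 1126 bins of the list used by 10 or more interactions. For the SE1 and SE2 guide bins that side was the one towards MYC, and for the MYC gene body bin, with 12 downstream and 3 upstream partner bins, the one towards the BENC.

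The 18 interactions of the SE1 guide bin had contact counts from 13 to 40. The largest was with the bin from 129420001, which was also the strongest partner of the Anchor bin, and the second, 36, was with the transcription start bin of MYC. The bin from 129535001 had contact counts from 14 to 39 over its 14 interactions, 13 of them inside CCDC26 and 1 with the 5′ end of PVT1.

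Interactions between exactly the often used bins were rarely listed. Among the 9 pairs of these bins that lie within the distances called, 1 was listed as such (11.1%), between the Anchor bin and the SE1 guide bin, with a contact count of 18 (10.7 to 28.4). Neighboring bins gave 4 of 9 pairs within 1 bin and 4 of 9 when the merged groups were taken as anchors. In the latter, MYC and SE1 were joined with a sumCC of 78, the bin from 129535001 and SE2 with 197, and SE1 and SE2 with 528. Within 1 bin, the contact counts were 43 for the Anchor bin and SE2, 45 for SE1 and SE2, 36 for MYC and SE1 and 18 for the Anchor bin and SE1. The list merges contacts near each other, and how far this accounts for pairs not listed was not tested. The sumCC of 528 belongs to a group of bin pairs from 129575001 to 129595000 and from 129660001 to 129685000 for which 3 interactions are listed, and the fraction of significant bin pairs in it was 0.4. The MYC gene body bin was not joined with the Anchor bin or with SE2 in any of these ways. Its partner bin nearest to SE2 started at 129655001, with a contact count of 15. The bin from 127725001, within 10 kb of MYC, was joined with the Anchor bin, with a contact count of 20. The paper reports interactions of the MYC promoter with SE1, SE2 and its Anchor site, and of SE1 with SE2. It took promoter anchors from a window of 10 kb on either side of transcription start sites, which includes part of the bin from 127725001. It also reports lower MYC expression after disruption of SE2 and, to a lesser extent, of SE1. A lower guide efficiency at SE1 is given there as the likely reason.

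HLF motifs were frequent in the interactions of the locus. At least 1 bin held an HLF motif in 156 of 172 (90.7%), beside 66.8% of all listed interactions, and both bins did in 58 (33.7%), beside 16.2%. All 5 often used bins held an HLF motif, beside 66.7% of the bins of the list with 10 or more interactions. None of the 5 held the CTCF core motif, which 2.93% of such bins held. At so low a share, its absence from 5 bins is uninformative. Among the 58 interactions without a bin used 10 or more times, 42 (72.4%) had an HLF motif, beside 61.4% of such interactions in the list. Nearly all of the matches were to TTATGTAA, and TTACGTAA alone was found in 4 of 172 (2.33%), compared with 8.34% of the list.

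In the bins of the stretch as such, HLF motifs were about as common as elsewhere on the chromosome. Of 394 bins, 143 (36.3%) held one, compared with 32.8% of the bins of chromosome 8. Bins with a motif were anchors in 57 of 143 cases (39.9%) and bins without in 80 of 251 (31.9%). The share with a motif was 34.6% in the 104 bins of the stretch used once, 13 of 23 in those used 2 to 4 times, 3 of 5 in those used 5 to 9 times and 5 of 5 in those used more often. Among all anchor bins of the list the share rose with use as well, from 28.5% in bins used once to 34.3%, 49.7% and 66.7% in the same classes. No test was made on these shares, because the bins of a stretch are not independent.

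Among the partner bins, HLF motifs were less frequent than in the often used bins themselves. Of the 18 partner bins of MYC, 4 (22.2%) held an HLF motif, so that the motif in 17 of its 18 interactions came mostly from its own gene body bin. The corresponding numbers were 16 of 50 (32.0%) for the Anchor bin, 6 of 14 (42.9%) for the bin from 129535001, 8 of 18 (44.4%) for the SE1 guide bin and 8 of 17 (47.1%) for the SE2 guide bin. These shares lay on either side of those of all bins of the stretch (36.3%) and of chromosome 8 (32.8%), and the differences were not tested. The 16 interactions with no HLF motif in either bin had contact counts from 15 to 38. They included 6 of the bin from 129225001 and 5 of the bin from 129030001, both in CCDC26 and without an HLF motif, and 3 of the bin from 129700001 downstream of it.

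The genes on either side of the stretch were counted by bins within 10 kb of each. CASC11, which overlaps the start of MYC, had 19 interactions, namely all 18 of MYC and 1 that joined the bin from 127685001 with the Anchor bin, with a contact count of 31. Further on the MYC side, 15 interactions reached PCAT1, a long noncoding RNA gene, and 10 of these also lay within 10 kb of CASC19, which overlaps it. The bin from 127180001, in both genes and with 1 HLF motif, accounted for 5 of them, 3 with PVT1 and 2 with CCDC26, and the largest of these contact counts was 33 (22.7 to 46.3), with the bin from 128075001 in PVT1. No listed interaction joined MYC, PVT1 or CCDC26 with TRIB1, NSMCE2, LRATD2, POU5F1B, CASC8, CCAT2, SQLE, WASHC5 or MTSS1, and a pair that is not listed was not significant or was not called, which does not show that it was absent. Calling ended at 3 Mb. TRIB1, NSMCE2, SQLE, WASHC5 and MTSS1 lie further than that from CCDC26, and MTSS1 also from PVT1, so these pairs could not be listed. On the other side, 2 interactions reached GSDMC, 3 CYRIB, 2 ASAP1 and 1 ADCY8, an adenylate cyclase gene. In the gap, 6 interactions reached LINC00824. Upstream of MYC, CASC21 had none, and PCAT2, PRNCR1 and CCAT1, which lie within PCAT1, had 1 each. Within the stretch, 4 interactions lay within 10 kb of MIR1204, the first of the microRNAs hosted by PVT1, and 1 or 2 each near MIR1205, MIR1206, MIR1207 and MIR1208, while none lay near LINC02912. Inside CCDC26, RefSeq places LINC00976 and LINC00977, with 4 and 16 interactions.

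Across the genome, the partners and antagonists of MYC in the MYC-MAX network were compared for their own interactions. Of 12 genes, 9 had at least 1 listed interaction within 10 kb, beside 64.5% of all protein-coding genes. MXI1, an antagonist that competes with MYC for MAX, had 36 with a largest contact count of 95, which is more interactions than MYC had. Per 100 kb of gene body with its flanks the order was the opposite, with 36.1 for MXI1 (rank 658) and 65.4 for MYC (rank 160). MLXIP, MGA and MXD1 had 11, 7 and 4, and MAX itself, the obligate partner of MYC, had 2. MLX and MLXIPL had 2 each, MYCL and MNT had 1 each, and MYCN, MXD3 and MXD4 had none.

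The locus was set beside MEF2C and the pair of BCL6 and LPP, further loci with many interactions. MEF2C, a transcription factor gene, had 59 interactions and BCL6 with LPP 106, with largest contact counts of 322 and 82, and thus 147 at the far end of CCDC26 lay between them. All 106 were interactions of LPP, and BCL6 took part in 4 of them, so the values of the pair are those of LPP. An HLF motif in at least 1 bin was found in 91.5% of the interactions of MEF2C, close to the 90.7% here, but in 47.2% of those of BCL6 and LPP. Interactions of more than 1 Mb made up 22.0% and 5.66%, compared with 24.4% here, and the most used bin held 27.1% and 31.1%, compared with 29.1%. These differences were not tested, as each locus was observed in 1 merged set of libraries.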

How the data were processed

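TCF3::HLF-HiChIP was carried out by the authors in 2 biological replicates of the TCF3-KO HAL-01 line, the only condition analysed here. Per the methods and the submitters' processing notes, the reads were trimmed with Trim Galore 0.6.6, the replicates were merged, reads were aligned to hg38 with BWA, interaction events were extracted with pairtools without removal of duplicates, peaks from MACS2 were supplied as reference, and FitHiChIP called interactions over distances of 50 kb to 3 Mb in 5-kb bins, kept those whose q-value was below 0.01 and merged contacts near each other. The FitHiChIP version is not given in the sources used here. The deposited contact counts and their sums over merged groups (sumCC) are raw counts of read pairs. The p-value and q-value deposited by the authors come from the FitHiChIP background model, and the deposited fraction states how many of the bin pairs of a merged group were significant.

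From this list, interactions were assigned to genes by bin overlap with the GENCODE body and 10 kb on each side, with chromosome 8 bins within the hg38 length. No test between samples was possible. The list holds no expression values, so the labelled cell line and knockout were not checked against marker genes. Single contact counts have exact Poisson 95% intervals, which divided by the median at the same distance gave the intervals of the ratios, and shares of contact counts have Wilson 95% intervals. Guides were matched to hg38 on both strands. The bins of an interaction shared at most 39 of their 31-mers. The members and gene lists were chosen with earlier results of these data known. The text names the 3 genes, the MYC-MAX network, a list of neighboring genes, the genes at the far bin of interactions that left the stretch, all interactions of MYC, the largest of each gene and the most used bins. Of the neighbor list, LINC01263 and TMEM75 matched no symbol. Functions were tested on simulated data. Alternatives were stricter q-values, contact counts and distances, merged groups, other gene windows, RefSeq bodies, omission of the Anchor bin and other HLF motif letters. Scripts ran in Python 3.11.15 with pandas 2.3.3, numpy 2.4.6, matplotlib 3.10.9 and scipy 1.17.1.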

Additional observations from a re-analysis of the deposited data

How the results depend on the processing

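Among 114 comparisons of a value with an alternative, 75 stayed within 1.5 times a count or within the interval of a median, share or ratio. With a q-value under 1e-05, 109 interactions of the locus remained listed in place of 172, with 10 for MYC, 19 for PVT1 and 92 for CCDC26, 3 joining MYC with PVT1, 5 joining PVT1 with CCDC26 and 21 leaving the stretch. The median contact count then was 29, and 3 bins had 10 or more interactions. Where only contact counts from 20 upwards were kept, PVT1 had 21 interactions, 6 joined PVT1 with CCDC26, 20 left the stretch and the median was 28, by construction. Up to 1 Mb, MYC had 10, and 0 joined MYC with CCDC26, 6 joined PVT1 with CCDC26 and 9 left the stretch. In merged groups of more than 1 bin pair there were 18 in all, 2 of MYC, 0 of PVT1 and 18 of CCDC26, of which 2 joined MYC with CCDC26, 0 joined MYC with PVT1, 0 joined PVT1 with CCDC26 and 0 left. Around transcript starts, PVT1 had 21 and CCDC26 78.

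Chosen after seeing the data, RefSeq bodies gave 107 in all, 75 for CCDC26 and 3 joining PVT1 with CCDC26, since the RefSeq body is shorter. Without the Anchor bin, CCDC26 had 95, 5 joined PVT1 with CCDC26 and 23 left. An HLF motif in at least 1 bin was found in 86.9% without the Anchor bin, in 2.33% with TTACGTAA only and in 94.2% with TTACGCAA and TTATGCAA counted too. The pairs of often used bins listed fell from 11.1% to 0 with a q-value under 0.001 or 1e-05 or contact counts from 20 upwards, and rose to 44.4% within 1 bin and with merged bin ranges. The ratios of 5 interactions stayed within their intervals under both other medians.

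No paired analysis was possible because the replicates were merged before interactions were called, and leaving out a replicate was not possible for the same reason. Depth limits the list to significant pairs, so a missing pair is not an absent contact.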
